A study of Homo sapiens with 6 samples.

Results

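The genes described here are 10 members of the NOTCH signalling pathway in FaDu cells that received the compound BB608 or DMSO, its vehicle. They are the receptors NOTCH1, NOTCH2 and NOTCH3, the ligands JAG1, JAG2 and DLL1, the glycosyltransferase LFNG, and the targets HES1, HES4 and NRARP. The members were taken by gene name from a deposited table of 20660 gene names. They account for 20 of the 82428 coding sequences in that table, with 1 row for each coding sequence.

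FaDu is an established human cell line derived from a hypopharyngeal squamous carcinoma, one of the head and neck squamous cancers. The groups are FaDu cells given BB608, a compound named only by its code, with 3 libraries, and FaDu cells given DMSO, also with 3 libraries. The series' design text calls the libraries biological replicates; the dose and duration of treatment are not given. RNA was measured by sequencing of total RNA after removal of ribosomal RNA, and the authors deposited 1 pooled level per group in FPKM, fragments scaled to transcript length and library size. No value per library was analysed here, so levels carry no replicate spread, and the sequencing depth is unknown. All 6 squamous epithelial markers looked up, among them KRT5 and TP63, were present, with gene sums of 21.3 to 2472 FPKM in BB608 and 20.6 to 2334 FPKM in DMSO. Of the markers of other cell types, 5 of 5 fibroblast genes and 3 of 3 blood genes were under 1 FPKM in both groups, and VWF was at 0.0696 FPKM in BB608 and 0.0595 FPKM in DMSO. CDH5 was listed at 4.09 FPKM in BB608 and 3.82 FPKM in DMSO, and PECAM1 was looked up by gene name but not found.

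NOTCH receptors are cell surface proteins that bind ligands of the Jagged and Delta-like families on neighbouring cells. Binding leads to cleavage by an ADAM protease and then by gamma-secretase, and the freed intracellular domain enters the nucleus, joins the DNA-binding protein RBPJ and a Mastermind coactivator, and switches on target genes. In squamous epithelium the pathway is known for driving keratinocytes out of the basal layer, and NOTCH1 is a recurrently mutated gene in squamous carcinomas of the head and neck. LFNG is a Fringe enzyme that adds sugars to NOTCH and alters which ligands activate it. HES1 and HES4 are basic helix-loop-helix repressors, and NRARP is a target whose product damps NOTCH signalling.

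RBPJ binds DNA at the motif TGGGAA and at variants such as TGTGAA. The start regions of the 3 target genes are shown because they carry or lack these letters, and that of NOTCH1 because it was the only member called changed. Each line gives bases 120 to 49 before the start on the gene's strand, from RefSeq on GRCh38.p14. Capitals mark TGGGAA, and TGTGAA on the other strand, which reads TTCACA here. Part of the HES4 stretch also lies within a GENCODE release 29 transcript of HES4, and no GENCODE transcript of NOTCH1 held the bases just after the RefSeq start used here.
HES1: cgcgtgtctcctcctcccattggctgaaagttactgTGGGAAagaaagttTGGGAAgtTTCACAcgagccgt
HES4: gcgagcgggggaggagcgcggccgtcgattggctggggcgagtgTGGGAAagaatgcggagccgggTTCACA
NRARP: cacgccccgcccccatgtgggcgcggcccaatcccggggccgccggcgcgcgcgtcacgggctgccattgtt
NOTCH1: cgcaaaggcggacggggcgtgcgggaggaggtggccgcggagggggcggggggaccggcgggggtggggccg

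These stretches lie on chromosome 3 from 194136028 to 194136099 for HES1, on chromosome 1 from 1000146 to 1000217 for HES4, and on chromosome 9 from 137302320 to 137302391 for NRARP and from 136546097 to 136546168 for NOTCH1, all on GRCh38.p14. HES1 is on the plus strand and the other 3 are on the minus strand. In HES1 the TGGGAA that begins 84 bases before the start was followed by TTCACA after 16 bases, and HES4 had the same spacing of 16 bases from the TGGGAA that begins 76 bases before its start. HES1 had a further TGGGAA 70 bases before the start. Within the 120 bases before the start, TGGGAA on either strand was found in 10.2% of all 35116 promoters in the RefSeq table, and 0.735% held it more than once. TGTGAA on either strand was found in 4.99% of them. The arrangement TGGGAA, 16 bases, TTCACA occurred in 3 of the 35116 windows, those of HES1, HES4 and ARHGAP22, but the spacing was read from HES1 and HES4 themselves, so this count is a description. NRARP and NOTCH1 had no TGGGAA and no TGTGAA in their 120 bases, which says nothing about sites elsewhere. Of the 10 members, 9 had a promoter in the RefSeq table, and DLL1 had none.

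With BB608, 1 of the 9 members that had a tested coding sequence was called changed: NOTCH1 rose, by the authors' Cuffdiff q under 0.05. This is 11.1% of 9 genes, against 1.06% of all 11429 gene names with a tested coding sequence, and against 0.429% for a call that is higher in BB608. With 9 genes, a single call sets that share. By coding sequence, 1 of the 12 tested was called, against 0.354% of 34474, and the same single sequence had an unadjusted p under 0.05, against 3.31% of all tested. No member fell by this rule, against 0.63% of all gene names with a tested coding sequence. Of the 8 members with at least 1 FPKM in the higher group, 6 had a higher gene sum in BB608 and 2 a lower one. Their median log2 fold was 0.09, and that of all 10865 genes kept in the same way was 0.03, of which 57.6% were higher in BB608. A gene sum is the FPKM of all rows with the same gene name, added up.

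**Figure D1:**
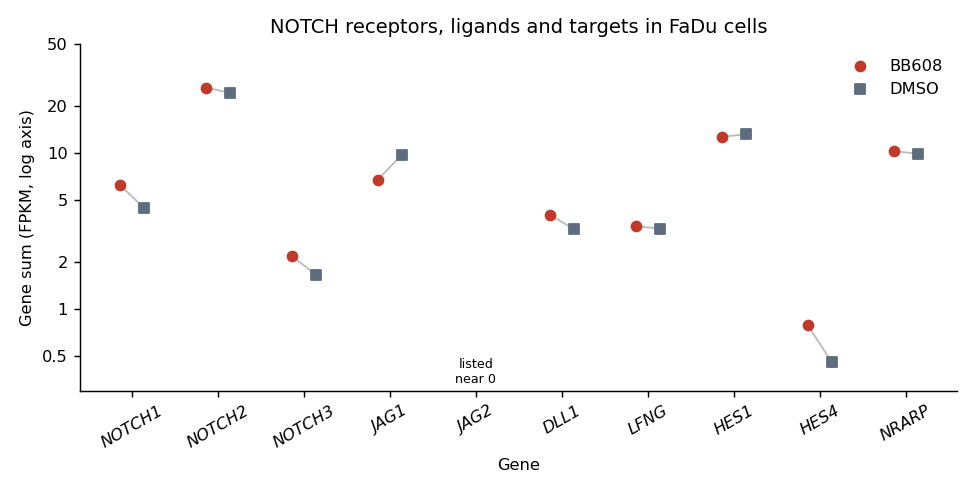
Gene sums in FPKM on a log axis for the 10 genes, with BB608 as circles left of DMSO as squares, 1 pooled value per group. NOTCH2 was the most abundant at 26.3 FPKM in BB608 and 24.3 FPKM in DMSO, and the BB608 point lies above that of DMSO for NOTCH1 and below it for JAG1.

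The order of abundance was nearly the same in both groups. In BB608 it ran NOTCH2, HES1, NRARP, JAG1, NOTCH1, DLL1, LFNG, NOTCH3, HES4 and JAG2, and in DMSO LFNG stood before DLL1 with the rest in the same order. Neighbours in this order cannot be told apart beyond replicate spread, because no spread per library is known. The median gene sum of the kept genes was 11.9 FPKM in BB608 and 11.6 FPKM in DMSO, so NOTCH2 and HES1 lay above the median in both groups and the other 8 members below it. In bulk RNA of this kind, fewer expressing cells and less RNA per cell cannot be told apart.

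Among the receptors, NOTCH1 had 1 coding sequence, P79745, at a locus on chromosome 9 from 139388896 to 139440401 of hg19. Its level was 6.22 FPKM in BB608 and 4.43 FPKM in DMSO, so the BB608 group was higher by 1.79 FPKM. That is 1.4-fold, and the authors' deposited table lists it as a log2 fold of 0.49 with a p of 5e-05 and a q of 0.0154. An error was derived for each fold from the deposited statistic and p, called the implied SE here. For NOTCH1 the implied SE was 0.11, which gives a 95% interval of 0.26 to 0.72 on the log2 scale around the fold in the authors' deposited table. That p is the smallest in the authors' deposited table and is shared by 112 coding sequences, so it does not rank NOTCH1 among them. By log2 fold NOTCH1 stood at place 27 of the 49 called rises in the authors' deposited table, whose median was also 0.49. Of 4105 tested coding sequences with a mean level of 4 to 7 FPKM, 13 were called and 1161 had a larger absolute fold than NOTCH1. The median implied SE of those 4105 was 0.49, against 0.11 for NOTCH1. Coding sequences of genes with 1 tested sequence, as NOTCH1 is, were called in 2.28% of 3551 cases.

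NOTCH2 had 1 coding sequence, on chromosome 1 from 120454176 to 120612240 of hg19. It was at 26.3 FPKM in BB608 and 24.3 FPKM in DMSO. The log2 fold in the authors' deposited table was 0.12 (implied SE 0.10, 95% interval -0.07 to 0.30), with a p of 0.22 and a q of 0.997. NOTCH2 made up 75.8% of the summed FPKM of the 3 receptors in BB608 and 80.0% in DMSO, and NOTCH1 made up 17.9% in BB608 and 14.6% in DMSO. The ratio of NOTCH2 to NOTCH1 was 4.23 in BB608 and 5.49 in DMSO. Whether the folds of NOTCH1 and NOTCH2 differ was not tested. NOTCH2NL, a partial copy of NOTCH2 with near-identical sequence, was listed at 24.3 FPKM in BB608 and 23.4 FPKM in DMSO. Reads shared by these copies make the level of each uncertain.

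NOTCH3 was the least abundant of the 3 receptors, with a gene sum of 2.19 FPKM in BB608 and 1.65 FPKM in DMSO, a log2 fold of 0.41. Its locus lies on chromosome 19 from 15270279 to 15311792 of hg19 and held 4 coding sequences, of which 3 were tested. Their folds did not point one way. P43376 was at 1.06 FPKM in BB608 and 0.0784 FPKM in DMSO, a log2 fold of 3.75 in the authors' deposited table with an implied SE of 2.56 and a p of 0.206. P43375 was at 0.300 FPKM in BB608 and 0.851 FPKM in DMSO, a log2 fold of -1.50 in the authors' deposited table with an implied SE of 1.47 and a p of 0.294. P43378 was at 0.741 FPKM in BB608 and 0.720 FPKM in DMSO, a log2 fold of 0.04 in the authors' deposited table with an implied SE of 0.29. Reads of a gene are split over its coding sequences by Cufflinks, and here the split was imprecise, with implied SEs of 1.47 and 2.56 for P43375 and P43376. The share of the gene sum held by P43376 was 48.3% in BB608 and 4.75% in DMSO, and that of P43375 was 13.7% in BB608 and 51.6% in DMSO. The NOTCH3 gene sum has no error of its own.

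**Figure D2:**
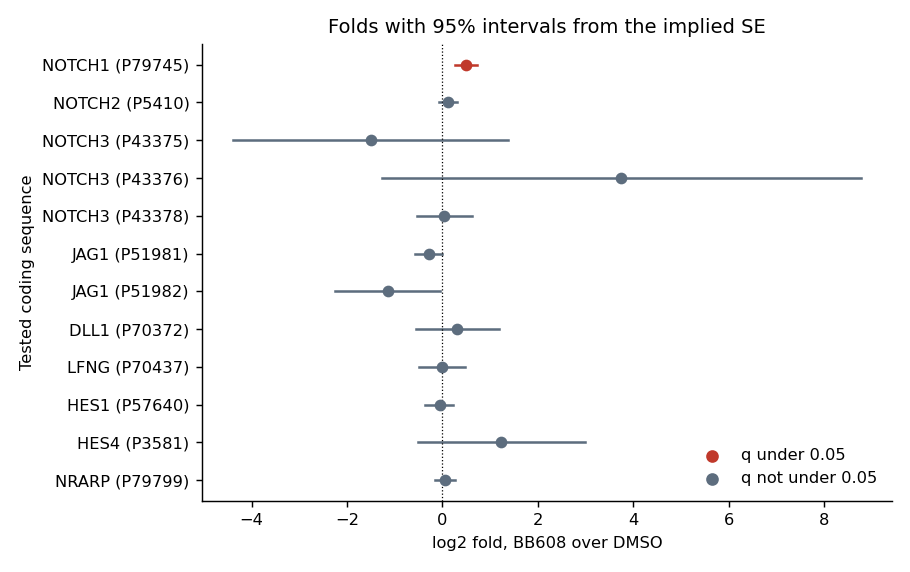
Log2 fold of BB608 over DMSO for the 12 tested coding sequences, with bars for the 95% interval from the implied SE. NOTCH1, in red, is the only one with a q under 0.05, at 0.49, and the bars of NOTCH3 P43376 run from -1.26 to 8.77.

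Among the ligands, JAG1 had the largest difference that was not called. JAG1 encodes a Jagged ligand, and its locus on chromosome 20, from 10618259 to 10654622 of hg19, held 2 tested coding sequences. P51981 was at 5.19 FPKM in BB608 and 6.31 FPKM in DMSO, a log2 fold of -0.28 in the authors' deposited table (implied SE 0.15, 95% interval -0.57 to 0.00, p 0.0514, q 0.997). P51982 was at 1.56 FPKM in BB608 and 3.47 FPKM in DMSO, a log2 fold of -1.15 in the authors' deposited table (implied SE 0.56, p 0.0905, q 0.997). Both coding sequences were lower in BB608, and neither passed the q. For P51982 the interval from the implied SE was -2.25 to -0.05, while an SE taken from the sequence's own p gave -2.49 to 0.18, so that interval includes 0 by one reckoning only. The JAG1 gene sum was 6.75 FPKM in BB608 and 9.78 FPKM in DMSO, a log2 fold of -0.54, and 4.3% of the kept genes had a lower fold.

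DLL1, a Delta-like ligand, had 1 coding sequence on chromosome 6 from 170591294 to 170599666 of hg19. It was at 4.03 FPKM in BB608 and 3.24 FPKM in DMSO. In the authors' deposited table its log2 fold was 0.31 (implied SE 0.44, 95% interval -0.56 to 1.18, p 0.473). The interval spans both a fall and a rise of more than 0.5 log2, so the missed q does not show that DLL1 stayed level. The JAG1 to DLL1 ratio of gene sums was 1.68 in BB608 and 3.02 in DMSO.

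JAG2, the other Jagged ligand, had 2 coding sequences on chromosome 14 from 105607215 to 105647660 of hg19, and neither was tested. The higher of them was listed at 1.35e-11 FPKM in BB608 and 4.31e-08 FPKM in DMSO. The table places NUDT14 at the same locus, with gene sums of 6.01 FPKM in BB608 and 5.56 FPKM in DMSO. Values this close to 0 can be a failed estimate. MIB1, the ubiquitin ligase that ligand-sending cells generally need, was likewise listed at 1.24e-05 FPKM in BB608 and 2.76e-07 FPKM in DMSO. For these reasons no fold is given for JAG2, and its listing is not read as absence of the transcript.

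LFNG lies on chromosome 7 from 2552163 to 2568811 of hg19, with 4 coding sequences, 1 of them tested. The tested one, P70437, was at 2.90 FPKM in BB608 and 2.93 FPKM in DMSO, a log2 fold of -0.02 in the authors' deposited table (implied SE 0.25, 95% interval -0.50 to 0.47, p 0.941). It held 85.5% of the gene sum in BB608 and 89.3% in DMSO. The LFNG gene sum was 3.39 FPKM in BB608 and 3.28 FPKM in DMSO.

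**Figure D3:**
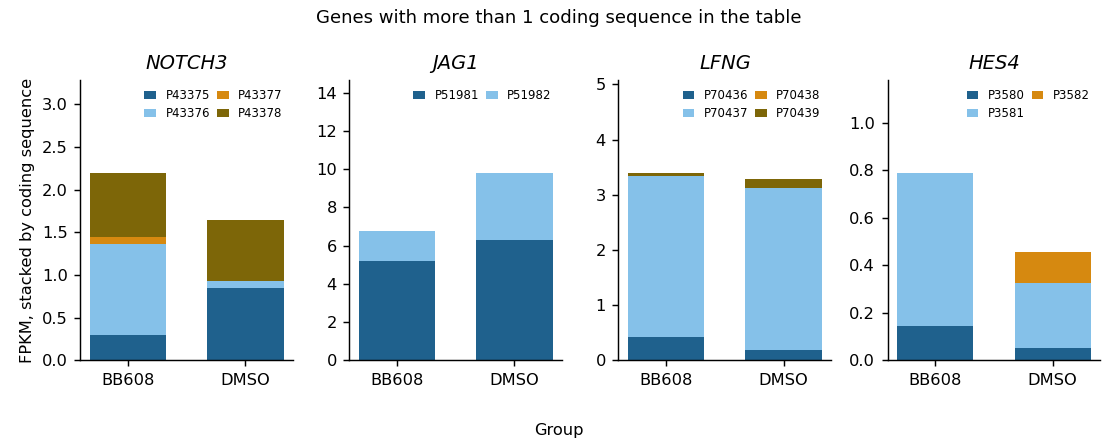
FPKM stacked by coding sequence for the 4 genes with more than 1 expressed coding sequence, with BB608 left of DMSO and a scale of its own in each panel. The NOTCH3 stack differs in make-up between the groups, while P70437 holds most of LFNG in both, at 85.5% in BB608 and 89.3% in DMSO.

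Of the targets, HES1 and NRARP were measured with small errors and were not called. HES1, whose start region holds TGGGAA more than once, lies on chromosome 3 from 193853934 to 193856521 of hg19. It was at 12.7 FPKM in BB608 and 13.2 FPKM in DMSO, a log2 fold of -0.06 in the authors' deposited table (implied SE 0.15, 95% interval -0.36 to 0.23, p 0.682). On the linear scale that interval runs from 0.78-fold to 1.18-fold. NRARP, on chromosome 9 from 140191911 to 140196703 of hg19, was at 10.3 FPKM in BB608 and 9.89 FPKM in DMSO. Its log2 fold in the authors' deposited table was 0.05 (implied SE 0.11, 95% interval -0.16 to 0.27, p 0.617), or 0.895-fold to 1.2-fold. A 1.4-fold difference such as that listed for NOTCH1 lies outside both intervals.

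HES4, which shares the spaced motif pair with HES1, was under 1 FPKM in both groups. Its locus on chromosome 1 from 934342 to 935552 of hg19 held 3 coding sequences with a gene sum of 0.788 FPKM in BB608 and 0.459 FPKM in DMSO. The tested one, P3581, was at 0.641 FPKM in BB608 and 0.273 FPKM in DMSO, a log2 fold of 1.23 in the authors' deposited table (implied SE 0.89, 95% interval -0.52 to 2.99, p 0.211). HES1 was 16.1 times as abundant as HES4 in BB608 and 28.9 times in DMSO. The summed level of the 3 targets was 23.7 FPKM in BB608 and 23.6 FPKM in DMSO, with HES1 at 53.4% of it in BB608 and 56.1% in DMSO.

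The 12 tested coding sequences differed widely in precision. Implied SEs were under 0.2 for 5 of them, those of NOTCH1, NOTCH2, JAG1 P51981, HES1 and NRARP, and reached 2.56 for NOTCH3 P43376. The median over all tested coding sequences was 0.72. The interval from the implied SE included 0 for 10 of the 12. In GENCODE release 29 on GRCh38, NOTCH1 and JAG1 each overlap an antisense gene and DLL1 overlaps FAM120B on the opposite strand. The library kit keeps strand, but no source used here says whether the counting used it, so reads of these partners may be mixed with those of NOTCH1, JAG1 and DLL1. MicroRNA genes aside, DLL1 also overlaps the gene AL078605.1 on its own strand, and JAG2 overlaps AL512356.1 on its own strand. Counting by strand would not separate the reads of those.

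**Figure D4:**
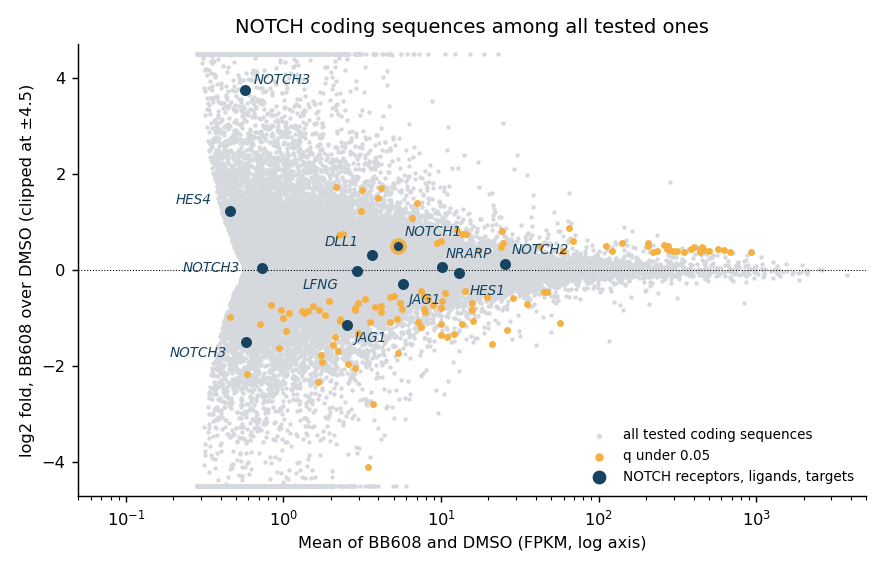
Log2 fold of BB608 over DMSO against mean FPKM on a log axis for the 34474 tested coding sequences in grey, those with a q under 0.05 in orange and the 12 of the NOTCH genes in dark blue. NOTCH1, ringed in orange, has a log2 fold of 0.49, and the 3 NOTCH3 sequences lie at the low end of abundance with folds from -1.50 to 3.75. Folds beyond 4.5 in either direction are drawn at the edge.

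The rest of the pathway was followed in 69 further genes, of which 50 had a tested coding sequence. None rose and none fell by the q in the authors' deposited table, against 1.06% of all tested gene names, and 5 of the 50 had a coding sequence at an unadjusted p under 0.05, against 9.49% of all tested gene names. Normal p-values computed from the deposited statistic also called 0 of them. In 47 of the genes the gene sum reached 1 FPKM in the higher group, with 25 higher in BB608 and 22 lower. Their median log2 fold was 0.05, beside 0.03 for all kept genes.

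Of 7 other receptors and ligands, 5 were under 1 FPKM in both groups, NOTCH4 and DLL4 among them. DLK2, a non-canonical Delta-like protein, had a gene sum of 26.9 FPKM in BB608 and 22.2 FPKM in DMSO. Of its 4 tested coding sequences, the one with the smallest p was at 11.3 FPKM in BB608 and 7.79 FPKM in DMSO. It is listed with a log2 fold of 0.54 in the authors' deposited table (implied SE 0.23, p 0.023, q 0.997). The most abundant tested DLK2 sequence had a log2 fold of 0.10 there (implied SE 0.23, p 0.662). EGFL7, a secreted protein with EGF-like repeats, was at 6.63 FPKM in BB608 and 5.75 FPKM in DMSO.

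The 5 glycosyltransferases beside LFNG had a median log2 fold of -0.01. POFUT1, which puts O-fucose on NOTCH, had a gene sum of 32.2 FPKM in BB608 and 32.4 FPKM in DMSO. POGLUT1, which adds O-glucose, had 12.8 FPKM in BB608 and 13.9 FPKM in DMSO. The Fringe enzyme MFNG had 10.3 FPKM in BB608 and 6.64 FPKM in DMSO, a log2 fold of the gene sum of 0.64. Its most abundant tested coding sequence had a log2 fold of 1.48 with an implied SE of 1.13 and a p of 0.356 in the authors' deposited table.

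Among 7 ligand trafficking and endocytosis genes, 5 were kept, and all 5 had a higher gene sum in BB608, as did 57.6% of all kept genes. Their folds ran from 0.05 to 0.45 with a median of 0.24, and none was called. DNM2, a dynamin, was at 51.6 FPKM in BB608 and 43.6 FPKM in DMSO. The epsin gene EPN1 was at 15.1 FPKM in BB608 and 11.1 FPKM in DMSO, and the ubiquitin ligase gene NEURL was at 1.94 FPKM in BB608 and 1.87 FPKM in DMSO. The smallest p among the EPN1 coding sequences was 0.0581 in the authors' deposited table. That sequence was at 4.99 FPKM in BB608 and 1.55 FPKM in DMSO. By the most abundant tested coding sequence, the folds of the 5 genes in that table did not point one way. They were 0.22 for DNM2, 0.09 for EPN1 (implied SE 0.27, p 0.75), 0.07 for NEURL1B, -0.19 for EPN2 and -1.65 for NEURL (implied SE 1.61). NEURL1B and EPN2 are named only to complete the 5.

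Of 9 proteases and gamma-secretase subunits, 8 were kept, with 2 higher in BB608, 6 lower and a median of -0.05. PSENEN, a gamma-secretase subunit, was at 72.1 FPKM in BB608 and 76.01 FPKM in DMSO. APH1A, another subunit, was at 59.9 FPKM in BB608 and 65.4 FPKM in DMSO. FURIN, the convertase that cuts NOTCH on its way to the surface, was at 14.3 FPKM in BB608 and 11.04 FPKM in DMSO, a log2 fold of the gene sum of 0.37.

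In the nuclear complex, 12 of 14 genes were kept, with 8 higher in BB608, 4 lower and a median of 0.14. SNW1, a splicing and transcription cofactor, had the highest level, with 85.7 FPKM in BB608 and 101 FPKM in DMSO. RBPJ had a gene sum of 10.5 FPKM in BB608 and 7.63 FPKM in DMSO, a log2 fold of 0.47, but its most abundant tested coding sequence had -0.05 (implied SE 0.27, p 0.861) in the authors' deposited table. Another RBPJ coding sequence, with a p of 0.0227 in the authors' deposited table, was listed at 2.85e-21 FPKM in BB608 and 0.760 FPKM in DMSO, and no fold is given for it. The coactivator EP300, picked out after its values were seen and with 1 coding sequence, was at 30.3 FPKM in BB608 and 26.6 FPKM in DMSO, with an implied SE of 0.09; the authors' deposited table lists a log2 fold of 0.19 at a p of 0.0438 and a q of 0.997.

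Of 8 other NOTCH targets, 7 were listed under 1 FPKM in both groups. These were HES2, HES5, HES7, HEY1, HEY2, HEYL and DTX1, and HEY1 was listed at 0.135 FPKM in BB608 and 0.670 FPKM in DMSO. DTX1 was listed at 5.62e-07 FPKM in BB608 and 4.19e-07 FPKM in DMSO, which, as for JAG2, can be a failed estimate. HES6 was the only one kept, at 1.06 FPKM in BB608 and 0.800 FPKM in DMSO. HES1 and NRARP supplied most of the FPKM among the canonical targets looked up.

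Of 14 regulators, 11 were kept, 4 higher in BB608 and 7 lower, with a median of -0.02. ITCH, a ubiquitin ligase that acts on NOTCH, was at 64.3 FPKM in BB608 and 65.04 FPKM in DMSO. NEDD4, a ligase of the same family, was at 21.9 FPKM in BB608 and 17.8 FPKM in DMSO. The corepressor TLE4 was at 1.26 FPKM in BB608 and 2.93 FPKM in DMSO, a log2 fold of the gene sum of -1.21. Its most abundant tested coding sequence had -0.98 (implied SE 0.46, p 0.0744) in the authors' deposited table. TLE3, a corepressor named after its values were seen, was at 25.6 FPKM in BB608 and 21.7 FPKM in DMSO. Of its 9 tested coding sequences, the one with the smallest p was at 2.68 FPKM in BB608 and 1.11 FPKM in DMSO. It is listed in the authors' deposited table with a log2 fold of 1.28 (p 0.0278, q 0.997), and its implied SE was 0.54. The most abundant tested TLE3 sequence had a log2 fold of -0.04 there (implied SE 0.51, p 0.931).

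Of 5 keratinocyte genes linked to NOTCH, KRT1 was listed at 0 in both groups and IVL was under 1 FPKM in both. KRT10, named to complete the 5, was at 6.08 FPKM in BB608 and 6.49 FPKM in DMSO. Its log2 fold in the authors' deposited table was -0.09 (implied SE 0.17, p 0.585). CDKN1A, a cell cycle inhibitor, was at 4.73 FPKM in BB608 and 11.7 FPKM in DMSO, with an implied SE of 0.56; the authors' deposited table lists a log2 fold of -1.30 at a p of 0.0286 and a q of 0.997. TP63, the basal cell transcription factor, was at 35.3 FPKM in BB608 and 32.1 FPKM in DMSO.

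**Figure D5:**
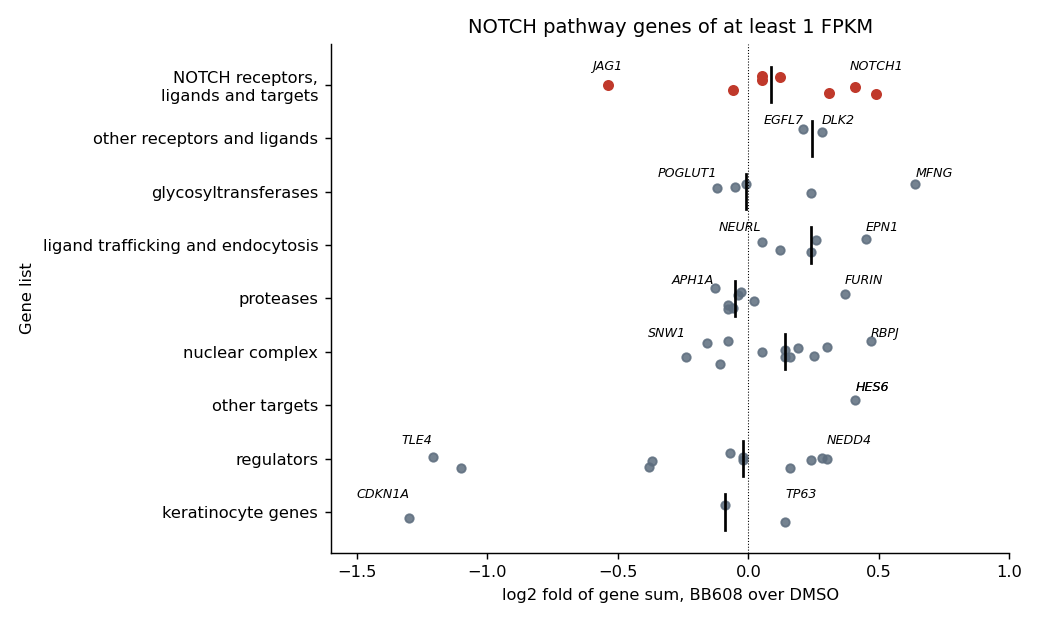
Log2 fold of the gene sum, BB608 over DMSO, for pathway genes that reached 1 FPKM in either group, by list, with a black line at the median of lists of 2 or more genes and the lowest and highest gene named. The 8 NOTCH receptors, ligands and targets of that level, in red at the top, run from -0.54 for JAG1 to 0.49 for NOTCH1 and have a median of 0.09. CDKN1A at -1.30 and TLE4 at -1.21 lie lowest.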

How the data were processed

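TopHat2 2.0.11, Cufflinks 2.2.1, Cuffdiff and build hg19 are named in the submitters' processing notes; no source used here names the annotation. The deposited table holds, per the file headers, 1 FPKM value per coding sequence and group, the log2 fold (BB608 over DMSO), the score of the test, and its p-value and q-value. The table's values are 1 pooled level per group, under the group names DMSO_subset and BB608_subset. The labels do not explain the word subset, so whether each value covers all 3 libraries of its group is not known. A design with limma per library was foreseen, but only pooled values were present, so tests are the authors' own. The deposited log2 fold matched the ratio of FPKM values within 4.72e-05 in tested rows above 0.001 FPKM, and the q matched a Benjamini-Hochberg adjustment within 5.23e-07.

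A coding sequence was called at a q under 0.05. The implied SE is the absolute log2 fold divided by the absolute statistic and by 1.74, the median ratio of the normal quantile of p to the statistic over 34310 rows. It covers only the spread in the authors' model. Genes were kept with a tested coding sequence, no failed row and 1 FPKM or more in either group. Locus starts count from 0 in the table, since locus sizes matched GENCODE sizes for 5185 genes that way against 184 otherwise, and were raised by 1. Members and lists were chosen with earlier results of these data known. Named pathway genes that were kept have the highest level, largest fold or smallest fold of their list, and exceptions are stated. That rule does not cover the named genes under 1 FPKM in both groups, such as NOTCH4, MIB1, HEY1 and KRT1. Some pathway genes are not reported here. Calculations used Python 3.11.15, numpy 2.4.6, pandas 2.3.3 and scipy 1.17.1 and were checked on simulated data. Alternatives covered thresholds, filters, pseudocounts, scaling and the summary per gene.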

Additional observations from a re-analysis of the deposited data

How the results depend on the processing

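The single call among the 10 genes, NOTCH1, held at an unadjusted p under 0.05, which was fixed in advance, since q is never below p. It held with q recomputed over coding sequences of at least 1 or at least 5 FPKM (q 0.0125 and 0.00836). These settings had little room to fail. NOTCH1 has the smallest p in the authors' deposited table, and its mean of 5.32 FPKM passes both filters. The call also held with normal p-values from the deposited statistic (q 0.00674), an alternative chosen after seeing the data. A bound of 1 log2 left 0 calls, because the fold of NOTCH1 is smaller. Of 90 settings over 18 folds, those of 9 gene sums and of 9 tested coding sequences that reached 1 FPKM, 87 stayed within 1 implied SE and 3 moved further. Gene sums were held to the implied SE of their most abundant tested coding sequence. Most abundant means the highest mean of the BB608 and DMSO levels. For NOTCH3 that is P43378, which was the highest in neither group alone. The wide SE of HES4, 0.89, covered its move from 0.78 to 1.23 by that sequence and to 0.29 with a pseudocount of 1 FPKM. The 3 that moved were NOTCH3 to 0.04 and JAG1 to -0.28 by the most abundant coding sequence, and NOTCH3 P43376 to 0.93 with a pseudocount of 1 FPKM. The setting for the NOTCH3 and JAG1 gene sums leaves out their other coding sequences, such as JAG1 P51982 at -1.15. The pseudocount adds 1 FPKM to a DMSO level of 0.0784 FPKM for P43376. Why coding sequences of the same gene had unlike folds was not tested. The uncalled LFNG gene sum, at 0.05, was -0.02 with quantile normalization, by the most abundant coding sequence and by tested coding sequences alone, and 0.00 after the shift of the median. Part of this is fixed in advance, since genes with 1 coding sequence have the same gene sum and fold. SEs from each sequence's own p, also chosen after seeing the data, stayed within 1.5 times for all 12. The median fold of the further pathway genes was 0.05 over 47 genes, 0.03 over 67 with no filter above 0, 0.04 over 38 of at least 5 FPKM, and 0.01 over 47 by the most abundant coding sequence. No paired analysis was possible because the values analysed here are 1 pooled level per group, and for the same reason no replicate was left out. Depth is unknown, which limits every low level.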
